A study of Mus musculus with 15 samples.

Results

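Gata2 and 9 other genes for transcription factors of blood vessel endothelium, Erg, Fli1, Ets1, Sox7, Sox17, Sox18, Klf2, Klf4 and Lyl1, were followed in the posterior eyecups of mice carrying the FUN025 allele of Tmem135. They are 10 of the 55421 genes counted in each library, and all 10 were among the 18979 genes that passed the filters on low counts and low variance. Gata2 was chosen by its lower level in FUN025/FUN025 than in WT eyecups, and the other 9 were added as factors of the same cells with results of these libraries already known. The difference between FUN025/FUN025 and WT is therefore given as a description, with no test.

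RNA came from eyecups, the wall at the back of the eye, after the neural retina was taken off, from mice of both sexes aged 2.5 months. There were 4 WT mice, 6 heterozygous mice (Tmem135 FUN025/+) and 5 homozygous mice (Tmem135 FUN025/FUN025), each giving 1 library, and the labels do not give the sex of each mouse. The allele is present in every cell of the body. Eyecups hold pigment epithelium, choroid with its vessels, sclera and attached muscle, so endothelial cells give only some of the RNA, and fewer endothelial cells cannot be told apart from less RNA per endothelial cell.

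Gata2 binds GATA motifs through zinc fingers and works with SCL/TAL-family proteins, LMO2 and LDB1 in blood progenitors and in endothelium. Lyl1 is a basic helix-loop-helix protein of that SCL/TAL family. Erg, Fli1 and Ets1 are ETS proteins that bind GGAA-type sites in many endothelial promoters and hold endothelial identity. Sox7, Sox17 and Sox18 form the SoxF group, which acts in arterial and lymphatic specification, and Klf2 and Klf4 are zinc finger factors induced in endothelium by laminar flow. In the choroid these factors are known from a dense fenestrated capillary bed, the choriocapillaris. Several of them also act elsewhere: Gata2 in mast cells, Fli1, Ets1 and Lyl1 in blood cells, and Klf4 in epithelia and fibroblasts.

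Every WT library was deeper than every mutant library: total counts were 18094977 to 20029919 in WT, 10903183 to 13456349 in FUN025/+ and 11053535 to 15038383 in FUN025/FUN025. Levels are in CPM, a gene's counts over the total of its library, scaled by TMM factors, which lay between 0.977 and 1.02. A count of 3 corresponds to 0.15 to 0.275 CPM, far under the lowest value of any of the 10 factors. Tmem135 itself was at 63.9 ± 2.99 CPM in WT (SD, n = 4), 74.9 ± 7.28 in FUN025/+ (n = 6) and 88.2 ± 4.56 in FUN025/FUN025 (n = 5). All 20 endothelial marker genes, Pecam1, Cdh5, Kdr and Vwf among them, were detected and tested, and their summed level was 2410 to 2787 CPM in WT, 1944 to 2618 in FUN025/+ and 1792 to 2192 in FUN025/FUN025.

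Positions are on GRCm38. Gata2 lies at chr6:88193891-88207032 on the plus strand and Lyl1 at chr8:84701457-84704715 on the plus strand. Erg (chr16:95359169-95586593), Sox18 (chr2:181669836-181671640), Sox17 (chr1:4490931-4497354) and Klf4 (chr4:55527143-55532466) lie on the minus strand. Klf2 (chr8:72319033-72321656) and Sox7 (chr14:63943673-63950732) lie on the plus strand. Fli1 (chr9:32422204-32542861, minus strand) and Ets1 (chr9:32636221-32757820, plus strand) are neighbours. Of the exonic bases of Sox17, 16.8% are shared with Gm37587 on the opposite strand, and the counting was not stated to use strand, so reads of these genes cannot be told apart there. Lyl1 shares 4 exonic bases with Nfix, and no other factor shares an exonic base with another annotated gene.

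RefSeq promoter sequences (GRCm38.p6) were at hand for 5 of the 10 factors, Gata2, Erg, Klf2, Klf4 and Lyl1, with 8 starts in all; Fli1, Ets1, Sox7, Sox17 and Sox18 had no entry. The 150 bases before the start are shown for Gata2 and Lyl1, which were called lower in FUN025/+ than in WT, and for Erg and Klf4, which were not called in that comparison. Each reads 5′ to 3′ on the gene's own strand, and capitals mark 5 motifs searched on either strand: GATAA for GATA proteins, CACCC for KLF proteins, GGAAG for ETS proteins, ACAAT for SOX proteins and TGACTCA for AP-1 proteins. The windows are chr6:88193741-88193890 for Gata2, chr8:84701307-84701456 for Lyl1, chr16:95586594-95586743 for Erg and chr4:55532476-55532625 for Klf4.
Gata2: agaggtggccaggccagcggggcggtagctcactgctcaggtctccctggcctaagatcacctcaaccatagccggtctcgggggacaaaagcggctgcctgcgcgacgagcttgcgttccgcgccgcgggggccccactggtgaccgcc
Lyl1: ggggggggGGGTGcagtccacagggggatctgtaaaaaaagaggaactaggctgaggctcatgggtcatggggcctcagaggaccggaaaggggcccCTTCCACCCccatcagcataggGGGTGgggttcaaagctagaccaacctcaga
Erg: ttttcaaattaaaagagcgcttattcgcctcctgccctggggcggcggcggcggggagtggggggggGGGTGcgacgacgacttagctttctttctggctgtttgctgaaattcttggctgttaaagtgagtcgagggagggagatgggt
Klf4: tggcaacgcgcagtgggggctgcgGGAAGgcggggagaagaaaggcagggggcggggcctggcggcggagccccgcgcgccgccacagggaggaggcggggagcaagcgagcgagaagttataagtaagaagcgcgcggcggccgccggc

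Within the full 250 bases before each start, the distal Gata2 start held none of the 5 motifs, and a start further inside the gene held 1 CACCC. Lyl1 held 4 CACCC, 2 GGAAG and 1 ACAAT, and 1 of its CACCC matches shares a base with a GGAAG match. GATAA, a core that GATA proteins bind, occurred in 1 of the 8 windows, the innermost of 3 Erg starts. Over all 32851 promoters of this length 22.6% held GATAA, 52.0% CACCC, 64.1% GGAAG, 27.7% ACAAT and 4.46% TGACTCA. The GC content of these bases was 67.2% and 74.0% at the Gata2 starts, 71.2% for Klf2, 74.0% for Klf4, 60.0% for Lyl1 and 48.8% at the outermost Erg start, against a median of 52.4% over all promoters. A match is a run of letters and not a measured binding site.

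Divided by exonic length, the level in WT was highest for Klf2, at 50.9 ± 6.22 RPKM (SD, n = 4). Klf4 (24.9 ± 5.21 RPKM) and Sox18 (24.0 ± 4.37 RPKM) came next and overlapped each other over the 4 mice. Erg (9.58 ± 0.462 RPKM), Lyl1 (9.45 ± 1.18 RPKM) and Ets1 (8.41 ± 0.639 RPKM) followed, and neighbours in that order overlapped. Fli1 was at 6.06 ± 1.02 RPKM and overlapped Sox17 at 5.26 ± 0.332 RPKM. Gata2, at 4.26 ± 0.548 RPKM, was above Sox7 (3.65 ± 0.575 RPKM) and below Sox17 in all 4 WT mice, although the ranges of these neighbours overlapped. Gata2 was thus ninth of 10 per length. Among the other GATA genes, Gata6 had a mean of 0.743 CPM over the 15 mice, Gata3 of 0.325 CPM, and Gata1, Gata4 and Gata5 each of under 0.1 CPM, against 18.5 CPM for Gata2.

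**Figure D1:**
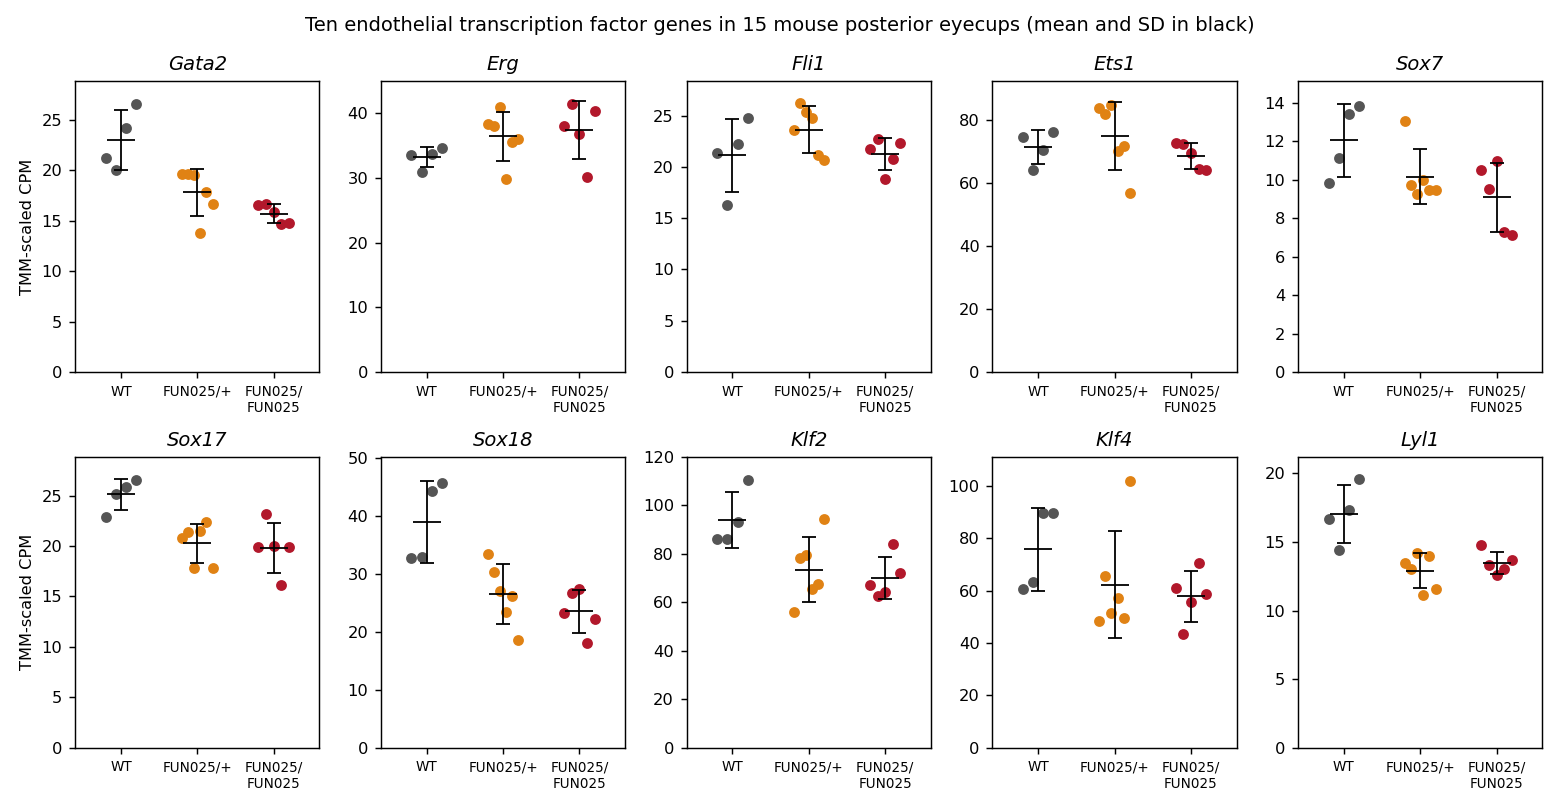
Level of the 10 factors in each of 15 eyecup libraries, in TMM-scaled CPM from 0 upward. Points are mice of the 3 genotypes, and black bars show mean and SD; Gata2 lies between 20.03 and 26.6 CPM in WT and between 13.8 and 19.7 CPM in all 11 mutant mice, while Erg overlaps among the genotypes.

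Gata2 was lower in FUN025/+ than in WT eyecups. It was at 21.2, 20.03, 24.2 and 26.6 CPM in the 4 WT mice, and in the 6 FUN025/+ mice the lowest value was 13.8, the median 18.7 and the highest 19.7 CPM. Every FUN025/+ mouse was thus below every WT mouse. The mean was 23.0 ± 2.96 CPM in WT (SD, n = 4) and 17.8 ± 2.33 CPM in FUN025/+ (n = 6), and the fitted log2 fold change was -0.37 (SE 0.10, adjusted p = 0.0203, edgeR's quasi-likelihood test with Benjamini-Hochberg adjustment over all 18979 genes). The FUN025/+ mice had no part in the comparison that chose Gata2, but the WT mice did. Without WT replicate 4, the mouse with the highest Gata2, the log2 fold change was -0.28 (adjusted p = 0.105), and without WT replicate 3 it was -0.34 (adjusted p = 0.0596). With the mean level of the endothelial markers as a term in the fit it was -0.19 (adjusted p = 0.154), with an offset for GC content -0.26 (adjusted p = 0.0838) and with the skeletal muscle level as a term -0.37 (adjusted p = 0.11).

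Lyl1, the SCL/TAL-family factor, had the lowest adjusted p of the 10. It was at 16.7, 14.5, 17.4 and 19.6 CPM in WT, and its lowest, median and highest values in FUN025/+ were 11.1, 13.3 and 14.2 CPM. These groups did not overlap either. The log2 fold change was -0.40 (SE 0.09, adjusted p = 0.00822 by edgeR), and without WT replicate 4 it was -0.32 (adjusted p = 0.0512).

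Of the SoxF factors, Sox17 and Sox18 fell in FUN025/+ and Sox7 did not pass the test. Sox17 was at 22.9, 25.2, 25.8 and 26.5 CPM in WT and had a lowest, median and highest value of 17.9, 21.1 and 22.4 CPM in FUN025/+, with no overlap. Its log2 fold change was -0.31 (SE 0.09, adjusted p = 0.0275 by edgeR). Sox18, the SoxF member tied most to lymphatic and capillary development, was at 32.7, 32.9, 44.3 and 45.7 CPM in WT and had a lowest, median and highest value of 18.6, 26.7 and 33.4 CPM in FUN025/+. Only FUN025/+ replicate 1 reached into the WT range. Its log2 fold change, -0.55 (SE 0.15, adjusted p = 0.0286 by edgeR), was the lowest of the 10. Both calls were lost in several fits: Sox17 stayed between -0.30 and -0.27, with an adjusted p of 0.0609, 0.0678 and 0.0982 without WT replicate 2, 3 and 4, and of 0.0604 and 0.0513 without FUN025/+ replicate 3 and 6. Sox18 was at -0.48 and -0.46 without WT replicate 3 and 4 (adjusted p = 0.08 and 0.109), at -0.52 and -0.55 without FUN025/+ replicate 4 and 5 (adjusted p = 0.0558 and 0.0505), at -0.56 with no low-count filter (adjusted p = 0.0719) and at -0.54 with only these 2 genotypes in the fit (adjusted p = 0.0524). The log2 fold change of Sox7 was -0.24 (SE 0.14, adjusted p = 0.257).

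The flow-responsive Klf2 and Klf4 did not pass edgeR's test in FUN025/+, while DESeq2 called Klf2 (-0.35, adjusted p = 0.034). Klf2 was at 86.3, 86.2, 93.1 and 110.6 CPM in WT, with 56.0, 72.9 and 94.2 CPM as the lowest, median and highest in FUN025/+. FUN025/+ replicate 6 alone lay within the WT range. The log2 fold change of Klf2 was -0.36 (SE 0.13, adjusted p = 0.0772 by edgeR), and without that mouse it was -0.44 (adjusted p = 0.0193). For Klf4 it was -0.28 (SE 0.22, adjusted p = 0.413), with values from 60.7 to 89.6 CPM in WT and from 48.5 to 101.8 CPM in FUN025/+. Without FUN025/+ replicate 6 the log2 fold change of Klf4 was -0.48 (adjusted p = 0.0569 by edgeR).

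None of the ETS factors was lower in FUN025/+. Erg was at 33.6, 30.9, 33.7 and 34.7 CPM in WT and had a lowest, median and highest value of 29.8, 37.0 and 41.0 CPM in FUN025/+. The groups overlapped, and the log2 fold change was 0.14 (SE 0.09, 95% interval -0.05 to 0.32, adjusted p = 0.315 by edgeR). Fli1 had a log2 fold change of 0.16 (95% interval -0.05 to 0.37, adjusted p = 0.303) and Ets1 of 0.07 (95% interval -0.12 to 0.26, adjusted p = 0.647). These intervals leave out a fall of the size measured for Gata2. With single mice left out the log2 fold change ran from 0.10 to 0.19 for Erg, from 0.06 to 0.25 for Fli1 and from 0.03 to 0.14 for Ets1.

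In all, 4 of the 10 factors were called lower in FUN025/+ (Gata2, Sox17, Sox18 and Lyl1) and none higher, and DESeq2 called 5, with Klf2 added. Over all tested genes 13.7% were called in this comparison, and 6.61% were called lower. Gata2, Sox17 and Lyl1 were lower with no overlap between the groups, which held for 5.18% of all tested genes. The median log2 fold change was -0.30 over the 10 factors and -0.002 over all tested genes. The other factors were added with results of these libraries known, and the WT mice had a part in choosing Gata2. The 10 are therefore no independent set, and the counts and medians beside those of all genes are descriptions. With WT replicate 4 left out, none of the 4 was called, and with WT replicate 3 left out only Lyl1 was. None of the 10 was called with the GC offset or with the skeletal muscle term, whose 10 markers all had negative differences in this comparison. With the endothelial term Ets1 alone was called, as higher, and with the replicate block Klf2 and Lyl1 were called lower. The endothelial term left log2 fold changes of -0.26 for Sox18 (adjusted p = 0.102 by edgeR), -0.27 for Lyl1 (adjusted p = 0.0722) and -0.23 for Sox17 (adjusted p = 0.138).

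**Figure D2:**
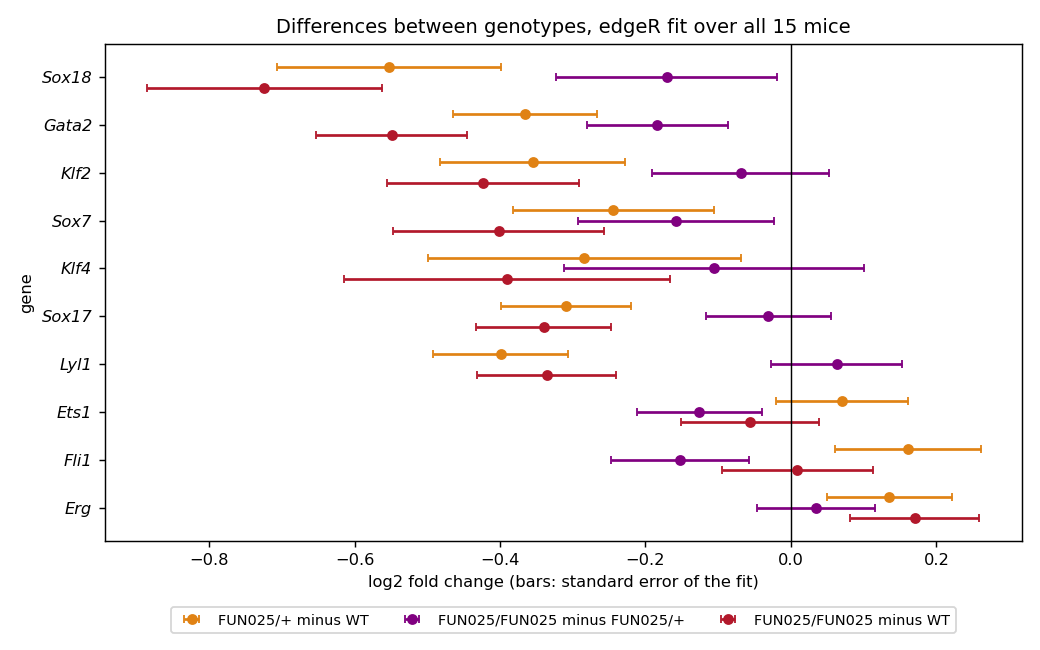
Fitted log2 fold change of the 10 factors for 3 comparisons of genotypes, with the standard error as bars; the axis is log2, and 0 means no difference. Sox18 has the lowest value of the 10 in FUN025/+ minus WT, at -0.55, followed by Lyl1 at -0.40 and Gata2 at -0.37, and Erg, Fli1 and Ets1 lie near or above 0 in FUN025/+ minus WT.

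The fold change over all genes moved with the GC content of the transcript in this comparison, and 3 of the 4 factors called lower lie in the decile richest in GC. The median log2 fold change of FUN025/+ against WT ran from 0.11 in the decile of genes with the lowest GC to -0.11 in the decile with the highest. Gata2 (58.2% GC), Sox18, Klf2 and Lyl1 lie in the highest decile, while Fli1 (44.5%) lies in decile 3 and Ets1 in decile 4. Erg (50.8%) and Sox7 share decile 6, and Sox17 (52.6%), the other factor called lower, lies in decile 7. With an offset for GC content in the fit, an alternative added after the data were seen, none of the 10 was called in FUN025/+: the log2 fold change was -0.26 for Gata2 (adjusted p = 0.0838), -0.29 for Lyl1 (adjusted p = 0.0516), -0.27 for Sox17 (adjusted p = 0.0705) and -0.44 for Sox18 (adjusted p = 0.0894). Between FUN025/FUN025 and FUN025/+ the medians of the deciles stayed between -0.008 and 0.002.

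**Figure D3:**
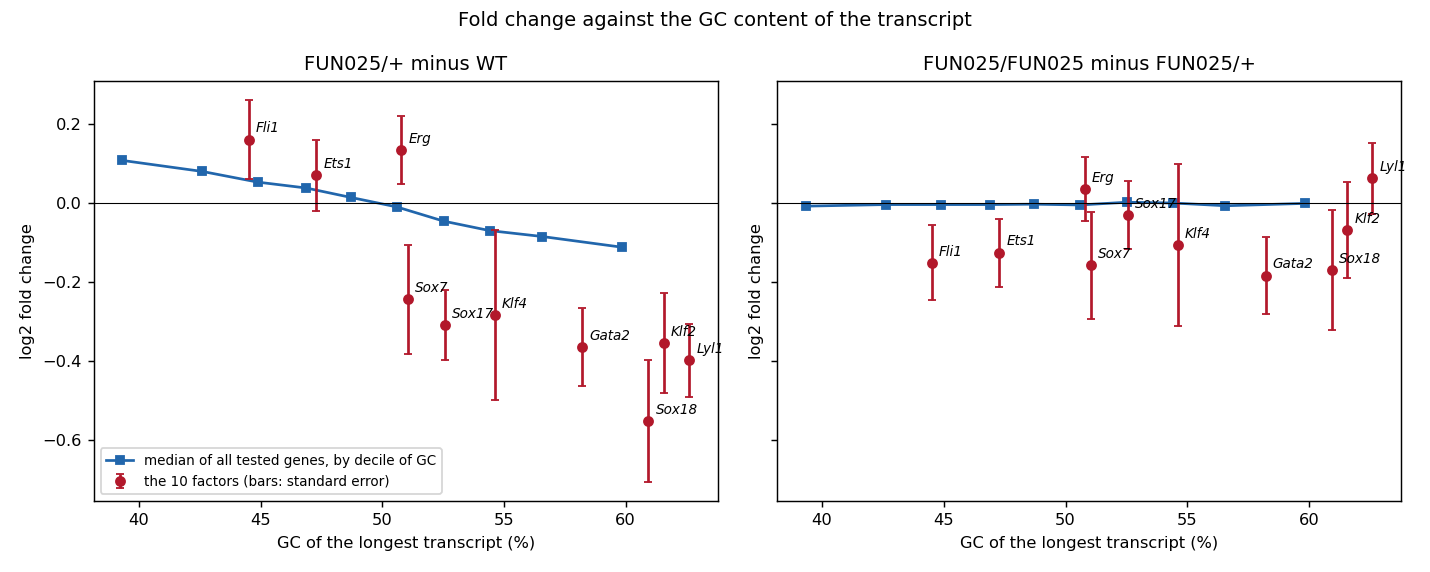
Log2 fold change against the GC content of the longest transcript, in percent, for the 10 factors (red, with standard errors) and as the median of all tested genes in deciles of GC (blue), for FUN025/+ minus WT on the left and FUN025/FUN025 minus FUN025/+ on the right. The blue line falls from 0.11 to -0.11 on the left and is flat on the right; Gata2, Sox18, Klf2 and Lyl1 sit at the right end of the GC axis.

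Between FUN025/FUN025 and FUN025/+, whose depths overlap, none of the 10 factors was called by edgeR, by DESeq2 or by limma-voom, and 0 had an unadjusted p under 0.05. Over all tested genes 0.522% were called. No WT mice enter this difference, but the FUN025/FUN025 mice were part of the comparison that chose Gata2. Gata2 was at 16.5, 16.7, 15.9, 14.7 and 14.8 CPM in the 5 FUN025/FUN025 mice. These lie within the range of the 6 FUN025/+ mice, with a narrower spread, 15.7 ± 0.944 CPM (SD, n = 5). The log2 fold change was -0.18 (SE 0.10, 95% interval -0.39 to 0.02, unadjusted p = 0.0725, adjusted p = 0.889 by edgeR). For Sox18 it was -0.17 (95% interval -0.49 to 0.15), for Lyl1 0.06 (95% interval -0.12 to 0.25) and for Erg 0.04 (95% interval -0.14 to 0.21). None of the 10 was lower in every FUN025/FUN025 mouse than in every FUN025/+ mouse, against 0.495% of all tested genes.

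As a description, the log2 difference of FUN025/FUN025 from WT was -0.55 for Gata2, the gene chosen by this comparison, and every FUN025/FUN025 mouse was below every WT mouse. Sox18, at 23.2, 26.7, 27.4, 18.1 and 22.2 CPM, differed from WT by -0.72 with no overlap. Klf2 differed by -0.42, also with no overlap. The difference was -0.40 for Sox7, -0.39 for Klf4, -0.34 for Sox17 and -0.34 for Lyl1. For the ETS factors it was 0.17 for Erg, 0.01 for Fli1 and -0.06 for Ets1. In the same fit 5 of the 10 were below the threshold and lower, beside 7.00% of all tested genes called lower, and 3 had no overlap, beside 7.49% of all tested genes lower with no overlap. Since this comparison chose Gata2, these counts carry no test and nothing is read from them.

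Gata2 was then set against the endothelial content of the same library, by the share of its CPM in the summed CPM of the 20 endothelial markers. That share was 0.831% to 0.954% in WT, with a median of 0.874%, and 0.666% to 0.855% in FUN025/+, with a median of 0.774%. The log2 ratio was lower by a mean of 0.20 in FUN025/+, with an overlap between the groups (exact two-sided permutation test, p = 0.0286, n = 4 and 6, smallest possible p 0.00476). The WT values of Gata2 in this test had a part in choosing it. The p was 0.0714 without WT replicate 3 and 0.0833 without WT replicate 4, with differences of -0.18 and -0.16, and with Pecam1 and Cdh5 alone as the denominator the difference was -0.15 (exact p = 0.105). From FUN025/+ to FUN025/FUN025, where the share was 0.745% to 0.820%, the log2 ratio differed by 0.02, a description, since the FUN025/FUN025 values chose Gata2. The other factors were set against the markers in the same way after the data were seen. Between FUN025/+ and WT the log2 ratio differed by -0.39 for Sox18 (exact permutation p = 0.00952) and by -0.23 for Lyl1 (exact permutation p = 0.0143), both with an overlap, and by 0.30 for Erg (exact permutation p = 0.00952), 0.34 for Fli1 (exact permutation p = 0.00476) and 0.23 for Ets1 (exact permutation p = 0.00952), with no overlap. For Sox7 (-0.07), Sox17 (-0.14), Klf2 (-0.20) and Klf4 (-0.14) the exact p was at least 0.233. These p-values are not adjusted for the 10 factors. The fitted differences of Erg, Fli1 and Ets1 themselves were 0.14, 0.16 and 0.07, none called. As most markers were lower in FUN025/+, a gene with no difference of its own also has a higher ratio to them. The share of all tested genes with such a ratio was not computed. With the mean marker level as a term in the fit across genes, the log2 fold change of Gata2 in FUN025/+ against WT was -0.19 (adjusted p = 0.154 by edgeR), and Ets1 was the only factor called, at 0.25 (adjusted p = 0.014). The markers themselves had negative fitted differences for 18 of 20 in FUN025/+ against WT, 6 of them called lower (6.61% of all tested genes were), and for 20 of 20 in FUN025/FUN025 against FUN025/+, none called (0.522% of all tested genes were).

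Of the 9 ratios of Gata2 to another factor, 3 differed between FUN025/+ and WT at an exact p under 0.05, and all 3 were those to ETS factors. Gata2 was at 0.633 to 0.766 of the Erg CPM in WT and at 0.462 to 0.516 in FUN025/+, with no overlap (log2 difference -0.50, exact two-sided permutation p = 0.00476, n = 4 and 6). Its ratio to Fli1 was 0.995 to 1.23 in WT and 0.558 to 0.844 in FUN025/+, again with no overlap (log2 difference -0.54, exact p = 0.00476, n = 4 and 6). Its ratio to Ets1 overlapped (log2 difference -0.43, exact p = 0.0143). The p of 0.00476 is the smallest this design allows, and these raw p-values are not adjusted for the 9 ratios. They also use the WT values of Gata2, which had a part in choosing it, and a choice of Gata2 for a high level in WT favours a higher ratio there. Gata2 itself was lower in FUN025/+ with no overlap, so its ratio to a gene with no difference falls too. The ratio of Gata2 to all other tested genes was not computed, so these counts do not set the ETS factors apart from them. The transcripts of Erg, Fli1 and Ets1 hold less GC than that of Gata2. In the fit with the GC offset the log2 fold change in FUN025/+ against WT was -0.26 for Gata2, 0.15 for Erg, 0.10 for Fli1 and 0.04 for Ets1. Without the offset these were -0.37, 0.14, 0.16 and 0.07. The ratios themselves were not computed with the offset, and the part of GC in them was not tested.

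The ratio of Gata2 to each of the other 6 did not differ detectably between FUN025/+ and WT. The log2 difference was 0.03 against Lyl1 (exact permutation p = 0.662), -0.06 against Sox17 (p = 0.748), 0.19 against Sox18 (p = 0.152), -0.13 against Sox7 (p = 0.367), -0.001 against Klf2 (p = 0.986) and -0.06 against Klf4 (p = 0.862). Between FUN025/+ and FUN025/FUN025 the ratios are given as descriptions, since Gata2 was chosen by its low FUN025/FUN025 values. The ratio of Gata2 to Lyl1 was 1.24 to 1.51 in FUN025/+ and 1.08 to 1.26 in FUN025/FUN025 (log2 difference -0.24), with an overlap, and its ratio to Erg differed by -0.21 on the log2 scale, also with an overlap. Relative to the endothelial markers Gata2 differed by 0.02 between the mutant genotypes, while Lyl1 differed by 0.26 (exact permutation p = 0.0108) and Erg by 0.22 (exact permutation p = 0.0281).

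**Figure D4:**
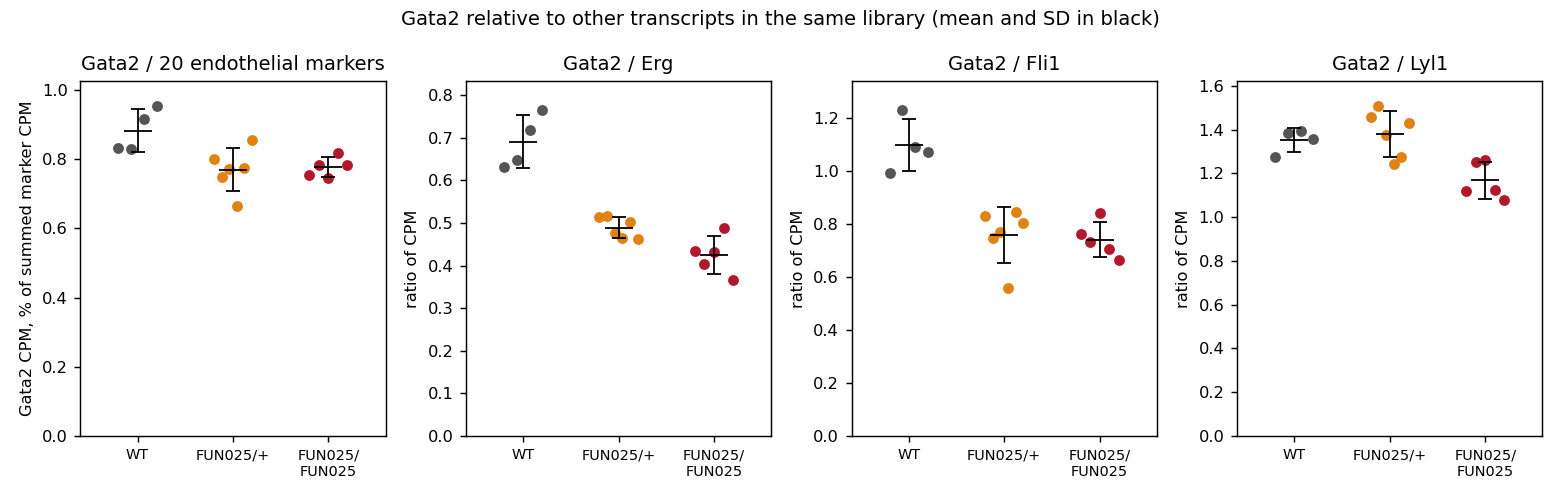
Gata2 relative to the summed level of 20 endothelial markers (in percent) and to Erg, Fli1 and Lyl1 (ratios of CPM) in each mouse, with mean and SD in black and axes from 0. The ratios to Erg and Fli1 do not overlap between WT and FUN025/+; the FUN025/FUN025 points are a description, since Gata2 was chosen by its level there; and the ratio to Lyl1 in FUN025/+ lies around that in WT.

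Mice of one genotype also differed in Gata2, and some of the factors followed it. With the genotype means taken out, Gata2 and Lyl1 had Pearson's r = 0.81 and Spearman's rho = 0.76 over 15 mice (permutation within genotype, p = 0.00148 and p = 0.00732). Sox18 had r = 0.73 and rho = 0.85 (permutation p = 0.00875 and 5.50e-04), and Erg r = 0.72 and rho = 0.73 (permutation p = 0.001 and 0.00128). Ets1 had r = 0.65 and rho = 0.80 (permutation p = 0.0356 and 0.00156). Without the 2 mice farthest from the median of Gata2, FUN025/+ replicate 4 and WT replicate 2, r was 0.65 for Lyl1, 0.85 for Sox18, 0.73 for Ets1 and 0.48 for Erg.

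Sox7 had r = 0.51 and rho = 0.54 (permutation p = 0.0493 and 0.0323), and Fli1 r = 0.47 and rho = 0.61 (permutation p = 0.143 and 0.0463). For Sox17 r was 0.20 and rho 0.32 (permutation p = 0.472 and 0.253). Without the same 2 mice r was 0.71 for Sox7, 0.67 for Fli1 and 0.55 for Sox17, and without FUN025/+ replicate 4 alone it was 0.77 for Fli1 and 0.47 for Sox17; without WT replicate 2 it was 0.31 for Fli1. Klf2 (r = 0.08, rho = 0.12, permutation p = 0.818 and 0.695) and Klf4 (r = -0.02, rho = 0.007, permutation p = 0.959 and 0.986) showed no relation to Gata2 that could be detected, and without those 2 mice r was -0.23 and -0.25. These 9 relations formed 1 family. In limma with genotype and Gata2 as terms, none of the 9 passed an adjusted p of 0.05 over all genes; Sox18 had the lowest, 0.153, and 14 genes passed in all. The median r with Gata2 was 0.70 over the 20 endothelial markers and 0.006 over all 18978 other genes. The 95th percentile over those genes was 0.54. Lyl1, Sox18, Erg and Ets1 lay above it. Sox7 and Fli1 lay below it, with 6.18% and 7.88% of genes at a higher r. Erg and Ets1 thus had a positive r with Gata2 among mice of one genotype, while their fitted differences between FUN025/+ and WT lay above 0.

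**Figure D5:**
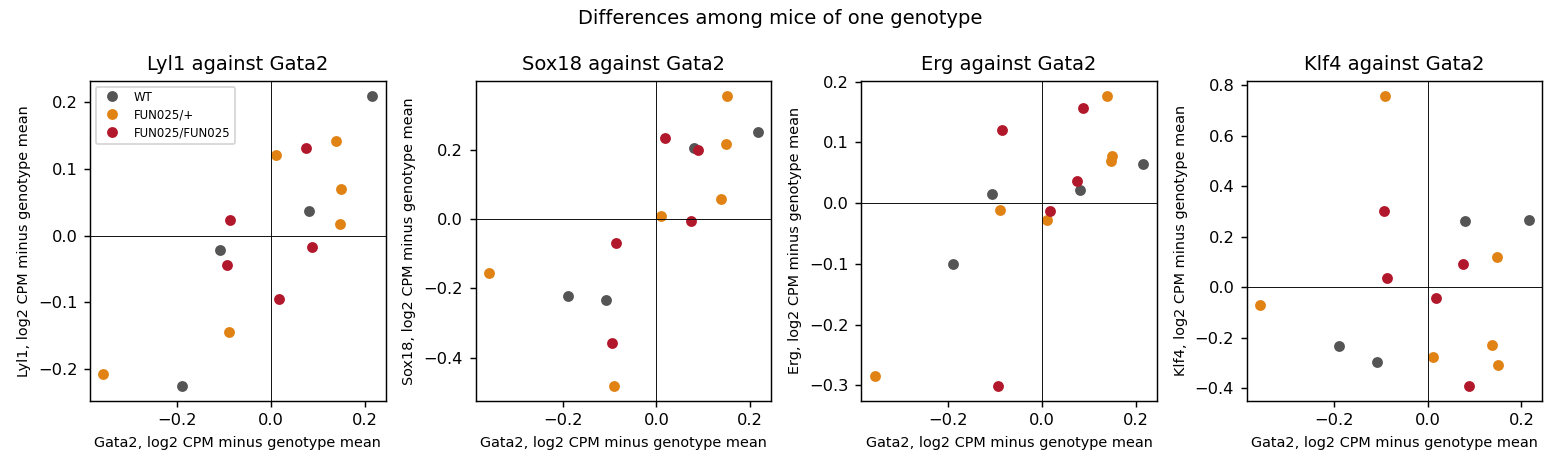
Log2 CPM less the genotype mean of Lyl1, Sox18, Erg and Klf4 (vertical) against that of Gata2 (horizontal), with 1 point per mouse and colours for the 3 genotypes. Lyl1 (r = 0.81), Sox18 (r = 0.73) and Erg (r = 0.72) rise with Gata2, and Klf4 (r = -0.02) does not; the high Klf4 point is FUN025/+ replicate 6.

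The 10 genes whose levels followed Gata2 most closely, by this r over 15 mice among genes with a mean of at least 1 CPM, were led by 3 of the endothelial markers: Robo4, a guidance receptor of endothelium (r = 0.93), Tie1, an endothelial receptor kinase (r = 0.89), and Vwf, which encodes von Willebrand factor (r = 0.89). They were followed by the noncoding Foxd2os (r = 0.89), Fzd7, a Wnt receptor (r = 0.86), Tmc8 (r = 0.86), Bop1, a ribosome biogenesis factor (r = 0.86), Plod1, a collagen lysyl hydroxylase (r = 0.86), Rcc2 (r = 0.85) and Adamtsl4 (r = 0.85). Of these, Robo4 was called lower in FUN025/+ against WT, by -0.40 on the log2 scale (adjusted p = 0.00281 by edgeR). These r values are descriptions.

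Among the proteins known to work with GATA2, 2 of 7 genes fell in FUN025/+ against WT and none rose, where 6.61% of all tested genes were called lower. Ldb1, which bridges GATA and LMO2 complexes, was at 159 ± 8.21 CPM in WT (SD, n = 4) and 134 ± 6.13 CPM in FUN025/+ (n = 6), a log2 fold change of -0.25 (adjusted p = 0.00177 by edgeR). Cbfa2t3, a corepressor found in SCL/TAL complexes, went from 27.5 ± 3.97 to 19.0 ± 3.27 CPM, a log2 fold change of -0.53 (adjusted p = 0.0166). Lmo2 (0.09), Runx1 (0.03), Tal1 (-0.25), Zfpm1 (-0.28) and Zfpm2 (-0.06) did not pass. The median of the 7 was -0.25. In FUN025/FUN025 against FUN025/+ none of the 7 was called, and their median was 0.02. Ldb1 (57.9% GC) and Cbfa2t3 (55.8%) lie in GC decile 9, whose median log2 fold change in FUN025/+ against WT was -0.085. For the genes of this and the next lists only the main fit is given. Whether their calls hold with the GC offset, the other terms or single mice left out is not reported here.

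Of 28 other endothelial transcription factor genes tested, 3 fell in FUN025/+ against WT and none rose, with a median log2 fold change of -0.12, beside 6.61% of all tested genes called lower. They were Ldb1, Sox13 (-0.28, adjusted p = 0.0415) and Id1, a helix-loop-helix inhibitor induced by BMP signalling (-0.50, adjusted p = 0.00466). Ldb1, the bridging protein, is on both lists and was already counted among the proteins that work with GATA2. Of the 3 most abundant, Ldb1 passed, and Epas1 (0.06) and Id3 (-0.28, adjusted p = 0.103) did not. None of the 28 was called in FUN025/FUN025 against FUN025/+. The ETS genes outside the 10 had 0 of 20 called in FUN025/+ against WT (median 0.05). Of 12 other KLF genes, Klf9 (-0.43, adjusted p = 0.0162) and Klf7 (-0.22, adjusted p = 0.0348) fell and Klf12 rose (0.40, adjusted p = 0.00458).

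Genes known as targets of GATA2 in endothelium included 1 of 7 that fell in FUN025/+ against WT, Nos3, the endothelial nitric oxide synthase. For this and the next lists, too, the share of all tested genes called lower was 6.61%, and with so few genes a count of 1 or 2 sets no list apart. It was at 53.5 ± 5.85 CPM in WT (n = 4) and 40.9 ± 4.77 CPM in FUN025/+ (n = 6), a log2 fold change of -0.39 (adjusted p = 0.0207 by edgeR). Edn1, the endothelin 1 precursor, was at -0.48 (adjusted p = 0.0503), Vwf at -0.15, Pecam1 at -0.17, Kdr at -0.04, Vcam1 at 0.07 and Nrp1 at 0.19. Of 8 targets of KLF2 and KLF4, Nos3 and Thbd, which encodes the anticoagulant thrombomodulin (-0.28, adjusted p = 0.0102), fell and none rose. Notch4 alone of 10 arterial and Notch genes fell (-0.36, adjusted p = 0.00762), while Notch1 (-0.03), Jag1 (0.07) and Efnb2 (0.22) did not pass. In FUN025/FUN025 against FUN025/+ none of these 3 lists held a called gene.

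Markers of other cells that express some of these factors were measured beside them. The summed level of 12 mast cell markers, cells that also use Gata2, was 58.2 to 65.9 CPM in WT, 52.8 to 77.4 CPM in FUN025/+ and 44.6 to 69.0 CPM in FUN025/FUN025. Most of it was Kit, at a mean of 43.0 CPM, and each of the others had a mean of at most 4.06 CPM, against 18.5 CPM for Gata2. Of the 7 tested, 6 had a negative difference in FUN025/+ against WT, with a median of -0.62 over the 7. Cma1 alone was called lower (-0.96, adjusted p = 0.0182 by edgeR). Kit was the 1 with a positive difference, at 0.20, so the sum, which is mostly Kit, does not show the lower values of the others. Between the mutant genotypes 6 of the 7 had a positive difference (median 0.34), none called. The sums of macrophage markers (596 to 742 CPM in WT, 589 to 844 CPM in FUN025/+) overlapped between genotypes, as did those of lymphocyte (13.5 to 22.2 and 13.1 to 25.8 CPM), platelet and lymphatic markers, with none called in FUN025/+. Red cell markers, summing to 52.3 to 297.9 CPM in WT, 23.2 to 133.2 CPM in FUN025/+ and 24.3 to 197.8 CPM in FUN025/FUN025, had a negative difference in 5 of 5 tested genes in FUN025/+ against WT (median -1.16) and a positive one in 5 of 5 between the mutant genotypes (median 0.65), none called.

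Of 10 skeletal muscle markers, 2 were called lower in FUN025/+ against WT. Their sum over 10 genes was 4061 to 7496 CPM in WT, 2224 to 5643 CPM in FUN025/+ and 3394 to 4128 CPM in FUN025/FUN025, and 10 of 10 had a negative difference in FUN025/+ against WT, although the sums overlapped. With the muscle level as a term, added after the data were seen, none of the 10 factors was called, while the log2 fold changes were -0.37 for Gata2 (adjusted p = 0.11), -0.70 for Sox18 (adjusted p = 0.0612), -0.33 for Sox17 (adjusted p = 0.102) and -0.34 for Lyl1 (adjusted p = 0.109), beside -0.37, -0.55, -0.31 and -0.40 without that term. Photoreceptor markers, 9 of 9 with a negative difference and none called, summed to 234 to 2311 CPM in WT and to 87.5 to 669 CPM in FUN025/+. Of the remaining lists, 1 of 12 mural cell and 1 of 5 Schwann cell markers were called lower, and none of 8 fibroblast, 8 pigment epithelium and 5 melanocyte markers or of 14 immediate early genes was called. The part of muscle, mast cell, red cell and photoreceptor RNA in the results on Gata2 was not tested beyond the fit with the muscle term.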

How the data were processed

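Posterior eyecup RNA of 15 mice was sequenced, and the authors deposited raw read counts per Ensembl gene, 1 table per library, without normalization. The submitters' processing notes name FastQC 0.11.8, Trimmomatic 0.39, HISAT2 2.1.0, SAMtools, featureCounts 2.0.0 and GRCm38; the strand setting is not given in the sources used here. Genotypes came from the sample labels. The 10 members and the gene lists were chosen with earlier results of these data known. Where nothing says otherwise, p-values measure the spread between these mice.

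Symbols, positions and exonic lengths came from GENCODE M21, which held 55240 of the 55421 genes. The 15% of genes with the lowest variance and those failing filterByExpr were removed. The 18979 left were tested with TMM scaling and edgeR 4.0.16 (quasi-likelihood, robust), all 15 mice in one fit, Benjamini-Hochberg adjustment and a threshold of 0.05. Log2 CPM used a prior count of 2. Ratios were compared by exact permutation, and correlations by 100000 permutations within genotype and limma 3.58.1. GC content was that of the longest transcript, known for 99.9% of tested genes. The scripts were tested on simulated counts. R 4.3.3, DESeq2 1.42.0 and SciPy 1.17.1 were used.

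Named genes are the 10 factors; from each list at most 4 called genes with the largest change and up to 3 of the most abundant; the 10 genes most like Gata2; and Tmem135. Values of other genes on short lists are given so that each list is accounted for. Alternatives were other scalings, filters and tests, covariates, a replicate block, thinned counts and leaving out each mouse.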

Additional observations from a re-analysis of the deposited data

Results flagged for a closer look

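Among 30 sets of values, 10 factors in 3 genotypes, 2 held a mouse far from the others of its genotype, where chance alone flags about 1 set in 20. Klf4 was at 101.8 CPM in FUN025/+ replicate 6, against 48.5 to 65.4 CPM in the other 5 FUN025/+ mice. The gap to its neighbour was 0.683 of the whole range, above the critical value of 0.625 for 6 mice. The same mouse had the highest Klf2 (94.2 CPM) and the lowest Sox18 (18.6 CPM) and Ets1 (56.8 CPM) of its genotype, and its summed immediate early genes were at 542 CPM, against 308 to 407 CPM in the other 5. It also had the lowest sum of endothelial markers of its genotype, 1944 CPM against 2072 to 2618 CPM, and the highest sum of Schwann cell markers, 796 CPM against 514 to 621 CPM. The part of these in its values was not tested. Sox7 was at 13.1 CPM in FUN025/+ replicate 1, against 9.26 to 9.98 CPM in the other 5, with a gap of 0.812 of the range.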

How the results depend on the processing

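For FUN025/+ against WT, 4 of the 10 factors were called. The count was 1 with the endothelial level as a term (Ets1), and it was 0 with a GC offset and 0 with the skeletal muscle level as a term, both added after the data were seen. The log2 fold change of Gata2 was then -0.19, -0.26 and -0.37 in that order, none past the threshold, and with the muscle term Ets1 turned to -0.048. The numbers on the labels do not pair the mice: over 13 pairs the mean correlation of deviations was -0.0759 (range -0.385 to 0.133, 1 of 13 over 0.1). With the replicate block 2 factors were called in FUN025/+ (Klf2 and Lyl1), Gata2 was at -0.34 (adjusted p = 0.0871), and between FUN025/FUN025 and FUN025/+ Klf2 turned to 0.013 and Klf4 to 0.081.

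Between FUN025/FUN025 and FUN025/+ no alternative called a factor. With the endothelial term Gata2 turned to 0.002, Ets1 to 0.075, Sox17 to 0.045 and Sox18 to 0.15, and with the immediate early term, added after the data were seen, Sox17 turned to 0.002. For FUN025/FUN025 against WT, 5 factors were below the threshold, 2 with the endothelial term (Erg and Ets1, both higher), 3 with the GC offset and 2 with the muscle term, as a description from which nothing is read, since this comparison chose Gata2; the value for Gata2 was -0.19 with the endothelial term. Gata2 relative to Pecam1 and Cdh5 alone differed by -0.15 in FUN025/+. With genotype means kept in, limma called 4 of 9 relations in place of 0, and r with Klf4 was 0.36. The cause was not tested in any of these.

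With single mice left out, 0 to 4 factors were called in FUN025/+ against WT and 0 to 0 between the mutant genotypes. For FUN025/FUN025 against WT, 2 to 5 were below the threshold (2 without WT replicate 3 or 4, 3 without FUN025/FUN025 replicate 2), from which again nothing is read. Gata2 ranged from -0.42 to -0.28, from -0.24 to -0.15 and from -0.60 to -0.47 in these comparisons. Sox17 in FUN025/+ lost its call in 5 of 15 such fits (-0.35 to -0.27), Sox18 in 4 (-0.63 to -0.46), Gata2 in 2 and Lyl1 in 1. Signs changed between the mutant genotypes for Erg (-0.011 to 0.11), Sox17 (-0.092 to 0.038), Klf2 (-0.14 to 0.015) and Klf4 (-0.18 to 0.09). The log2 ratio of Gata2 to the markers ranged from -0.23 to -0.16 in FUN025/+ against WT and from -0.025 to 0.047 between the mutant genotypes, the ratios to other factors past 0.05 numbered 3 to 3 and, as a description from which nothing is read, 2 to 4, and 0 to 0 relations were called by limma; r ranged from -0.10 to 0.30 for Klf2, from -0.15 to 0.16 for Klf4, from 0.11 to 0.47 for Sox17 and from 0.31 to 0.77 for Fli1. Over all tested genes 2598 were called in FUN025/+ against WT, 1361 with the muscle term and 1433 without WT replicate 4. For FUN025/FUN025 against WT the 2663 calls became 846 with the endothelial term and 1519 without WT replicate 4, and between the mutant genotypes the 99 became 171 by DESeq2. The greater depth of every WT library cannot be told apart from genotype; with counts thinned to 10903183 in each library Gata2 in FUN025/+ was at -0.34 (adjusted p = 0.0378), and Sox18 at -0.46 (adjusted p = 0.073) was not called.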
